A study of Mus musculus with 8 samples.

Results

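The Slc16 genes encode the monocarboxylate carriers and their relatives, membrane proteins that move small metabolites across cell membranes. The 9 members described here, Slc16a1, Slc16a4, Slc16a7, Slc16a9, Slc16a10, Slc16a11, Slc16a12, Slc16a13 and Slc16a14, were chosen by symbol among the 22609 genes in the files, which hold 14 Slc16 genes in all. They were listed with the differences between these same aged and young mice known. Their age differences are therefore given as a description, without a p-value. All 9 passed the filter on low counts and were among the 13944 genes tested.

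RNA-Seq was performed on the kidney cortex of 4 aged mice (30 months) and 4 young mice (5 months), all untreated male C57BL6, with 1 library per mouse. These ages are those of the labels, and the study's methods give a somewhat higher mean age for the aged mice. Nothing in the labels names a batch. The aged libraries held 14820804 to 19018543 pairs assigned to genes and the young libraries 15152597 to 19821429. Cortex was sequenced as whole tissue, so fewer cells of a type and less RNA per cell cannot be told apart. All 17 listed markers of the proximal tubule, the main cell type of the cortex, were above the filter. Aged mouse 1 stood apart: these markers summed to 17662 CPM (counts per 1000000 pairs counted on genes) in it, to between 31117 and 35980 in the other aged mice and to between 33400 and 37609 in the young mice. It was the lowest of the aged mice in every marker of the list except Slc27a2, though by unlike amounts. Lrp2 was at 3862 CPM in it and at 8734 to 10580 CPM in the other aged mice. Slc27a2, at 3950 CPM, lay within the range of the other aged mice (3480 to 5094 CPM) and below the young range (4638 to 5662 CPM). Slc4a4, at 2308 CPM, lay within the young range (2293 to 2734 CPM) and below the other aged mice (2415 to 2790 CPM). Values of the members that rest on this mouse are given with and without it.

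The best known carriers of the family move lactate, pyruvate and ketone bodies together with a proton, down the gradient of both, and reach the cell surface with a small helper glycoprotein, basigin or embigin. In the kidney, the proximal tubule takes lactate up for gluconeogenesis and oxidation. It reabsorbs monocarboxylates from the filtrate through the sodium-coupled carriers Slc5a8 and Slc5a12, and lets them leave across the basolateral membrane through Slc16 carriers. Other members carry aromatic amino acids, thyroid hormones, creatine or carnitine, and the cargo of several is not settled.

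Levels between genes were compared as FPKM, which is CPM divided by the exon length in kilobases. In young mice, the most abundant member was Slc16a9, a carnitine carrier, at 79.7 ± 4.43 FPKM (SD, n = 4). Slc16a12, a creatine carrier, followed at 62.0 ± 5.19 FPKM, and Slc16a14, whose cargo is not settled, at 57.2 ± 11.3 FPKM. Slc16a13 had 42.6 ± 3.84 FPKM, Slc16a7 37.7 ± 3.10, Slc16a4 24.2 ± 3.86, Slc16a1 11.5 ± 0.699, Slc16a10 11.0 ± 1.32 and Slc16a11 5.38 ± 0.357. Among members next to each other in this order, the ranges over the young mice overlapped for Slc16a12 and Slc16a14, Slc16a14 and Slc16a13, Slc16a13 and Slc16a7, and Slc16a1 and Slc16a10, so these pairs did not differ beyond their spread. The place of Slc16a4 depends on the length used, since with its longest coding transcript in place of all exons it stood at 41.7 FPKM.

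In aged mice the order differed most at Slc16a14 and Slc16a1. Slc16a14 was at 13.3 ± 5.86 FPKM (SD, n = 4) and Slc16a1 at 37.1 ± 20.5 FPKM. Slc16a1 was the member below Slc16a4 in young mice. Over all aged mice its mean lay above those of Slc16a7, Slc16a13, Slc16a14 and Slc16a4. This place rested on aged mouse 1, which had the highest aged value of Slc16a1, 66.2 FPKM. Without that mouse, the aged mean of Slc16a1 lay below those of Slc16a7 and Slc16a13. It stayed above those of Slc16a14 and Slc16a4. The 9 members together summed to 331 ± 7.74 FPKM in young mice and to 234 ± 23.0 FPKM in aged mice (SD, n = 4). The sums ranged from 321 to 339.8 FPKM in young mice and from 213 to 261 FPKM in aged mice, so the groups did not overlap. Slc16a14 made up between 14.6% and 21.2% of this sum in young mice and between 3.14% and 8.23% in aged mice. Slc16a1 made up between 3.28% and 3.87% in young mice and between 7.34% and 30.5% in aged mice, where the highest share was that of aged mouse 1 and the next was 14.6%.

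**Figure D1:**
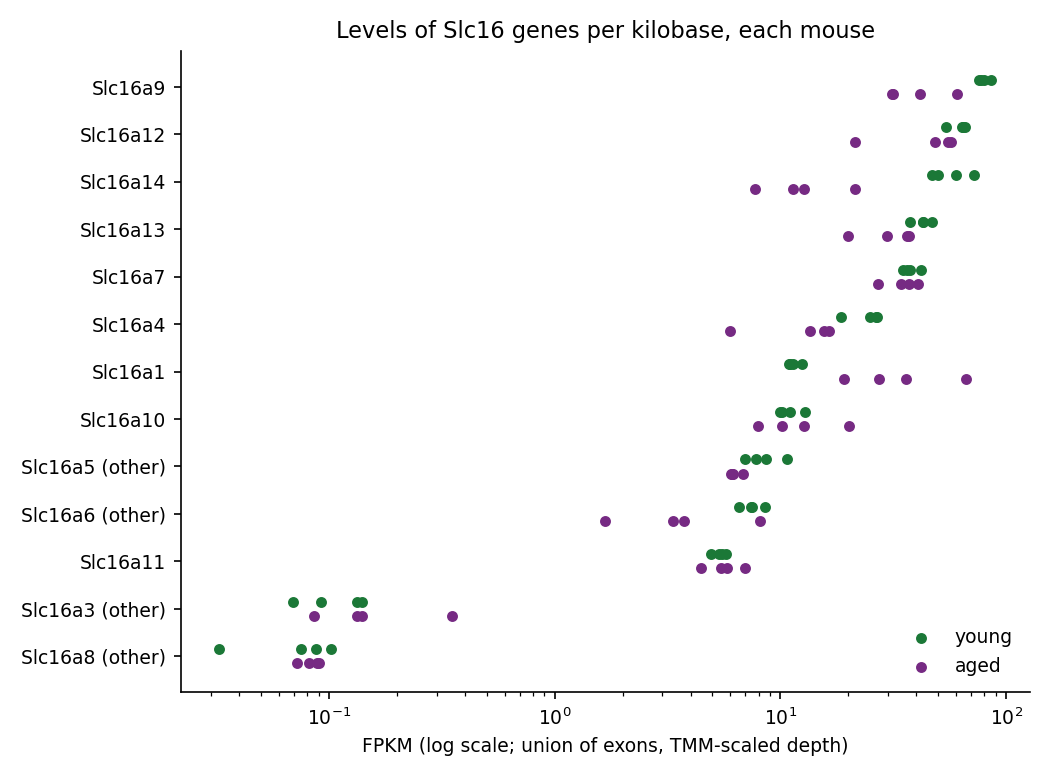
Level of the 9 members and 4 other Slc16 genes in FPKM on a log axis, with 1 point per mouse (green, young; purple, aged; n = 4 each), ordered by the mean over the young mice. Slc16a14 and Slc16a9 lie lower in every aged mouse than in any young mouse, and Slc16a1 lies higher.

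A gene counted as called when its fold change exceeded 1.5 and its p from edgeR's quasi-likelihood test, adjusted by Benjamini-Hochberg over all genes tested, was below 0.05. Of the 9 members, 3 were called, Slc16a1 as higher and Slc16a9 and Slc16a14 as lower in aged mice. Over all genes tested, 2.06% were called, 1.17% as higher and 0.889% as lower. The members were picked with this contrast known, so nothing is read from the count. The aged and young values did not overlap in 5 of the 9 members, against 18.9% of all genes tested. Of these 5, Slc16a1 was higher in aged mice and Slc16a14, Slc16a9, Slc16a4 and Slc16a13 were lower. The corresponding shares of all genes were 8.85% for higher and 10% for lower. The median log2 fold change was -0.45 over the members and 0.03 over all genes tested. Of all 287 calls, 56.8% were higher in aged mice, and 75.4% of the 488 calls made with scaling by library size alone, which called the same 3 members.

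**Figure D2:**
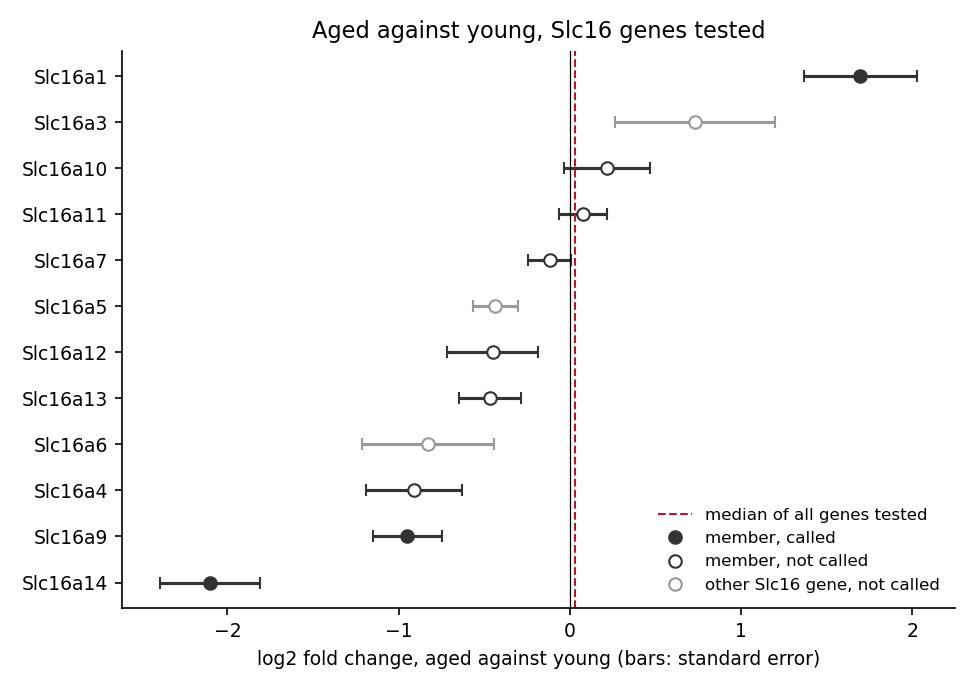
Log2 fold change, aged relative to young, for the 9 members and 3 other Slc16 genes tested, with the standard error as bars (n = 4 mice per group). Filled points were called, and the dashed line is the median of all genes tested. Slc16a1 stands at 1.70, Slc16a9 at -0.95 and Slc16a14 at -2.10.

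Slc16a14 was the member with the lowest level in aged relative to young mice. It lies on the minus strand at chr1:84902473-84931700 (mm9). CPM, scaled by TMM, was 231, 150, 191 and 160 in young mice 1 to 4 and 40.6, 24.6, 36.3 and 68.8 in aged mice 1 to 4. Every aged mouse was below every young mouse, with aged mouse 4 nearest to the young mice. The means were 183 ± 36.3 CPM in young and 42.6 ± 18.7 CPM in aged mice (SD, n = 4), and the log2 fold change was -2.10 ± 0.29 (SE), a level 4.29-fold lower. These values rest on 2711 to 3741 counts per young library and 378 to 1262 per aged library. Leaving out each mouse in turn gave log2 fold changes from -2.43 to -1.91, and the call was lost without young mouse 1, 3 or 4.

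Promoter sequences were taken from RefSeq (GRCm38.p6), which held 7 of the 9 members, and were placed on mm9 by an exact match. The bases before the start of Slc16a14 and of Slc16a1 are shown because these are the members with the lowest and the highest aged against young ratio. Each line is written 5′ to 3′ on the strand of the gene and shows only bases that lie before the annotated gene. Slc16a14 is at chr1:84931701-84931908 on the minus strand, and Slc16a1 at chr3:104442337-104442586 on the plus strand. Capitals mark the motif matches named next.
Slc16a14: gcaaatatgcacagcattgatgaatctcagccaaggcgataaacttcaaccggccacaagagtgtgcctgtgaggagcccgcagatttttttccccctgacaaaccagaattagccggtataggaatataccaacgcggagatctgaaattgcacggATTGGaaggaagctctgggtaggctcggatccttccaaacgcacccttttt
Slc16a1: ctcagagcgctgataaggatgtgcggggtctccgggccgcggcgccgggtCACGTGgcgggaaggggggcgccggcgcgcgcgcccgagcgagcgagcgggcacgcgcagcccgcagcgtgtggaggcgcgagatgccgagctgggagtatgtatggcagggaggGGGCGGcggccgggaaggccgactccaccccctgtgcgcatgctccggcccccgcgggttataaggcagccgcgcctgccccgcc
In both strands of the 250 bases before each start, 7 short motifs were searched. They were the E-box CACGTG, the D-box core TTATGTA, the HNF1 motif GTTAAT, the HNF4 core CAAAGTC, the TATA box TATAAA, the GC box GGGCGG and the CCAAT box. Slc16a14 held 1 of them, a CCAAT box on the opposite strand (read here as ATTGG), which begins 93 bases before the RefSeq start. That start lies inside the annotated gene, so the match is nearer to the end of the printed line. CCAAT boxes were found in 33.8% of the 32851 mouse promoter windows in the table. Slc16a1 held an E-box 200 bases and a GC box 85 bases before its RefSeq start, which were found in 6.02% and 32.7% of all windows. The Slc16a1 window was 76.4% G or C with 37 CpG, and the Slc16a14 window 50.4% with 11, beside medians of 52.4% and 6 over all windows. Among the other matched members, the E-box was found in Slc16a12, which also held the D-box core (2.34% of all windows) and the HNF4 core (3.84%). The HNF1 motif (6.43%) was found in Slc16a10 and the TATA box (12.4%) in Slc16a4. Of the 7 members matched, 4 held a CCAAT box and 3 a GC box. A match describes letters in this window and not a bound site.

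Slc16a1 encodes MCT1, the proton-linked carrier of lactate, pyruvate and ketone bodies found in most tissues. It lies at chr3:104442591-104462385 on the plus strand (mm9). In young mice 1 to 4 it was at 50.5, 55.1, 48.5 and 48.6 CPM, and in aged mice 1 to 4 at 293, 159, 121 and 84.8 CPM. All aged mice were above all young mice, and the aged mice were spread far more widely, with aged mouse 1 highest. The means were 164 ± 90.8 CPM in aged and 50.7 ± 3.09 CPM in young mice (SD, n = 4), which are coefficients of variation of 55.2% and 6.10%. The log2 fold change was 1.70 ± 0.33 (SE), a level 3.24-fold higher. Without aged mouse 1 it was 1.26 and the gene was still called. The call was lost without aged mouse 2, aged mouse 3 or any 1 of the young mice, with log2 fold changes between 1.26 and 1.91 over all 8 mice left out in turn.

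Aged mouse 1 was also far from the others in a gene of fasting metabolism, which was picked after its values were seen. Pdk4, a kinase that switches pyruvate dehydrogenase off, was at 892 CPM in aged mouse 1, at 24.9 to 60.8 CPM in the other aged mice and at 14.1 to 29.5 CPM in young mice. It was not called (adjusted p = 0.0998 by edgeR's quasi-likelihood test). The part of this difference in the Slc16a1 values of that mouse was not tested. Slc16a1 was above the young range in each of the other aged mice too.

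**Figure D3:**
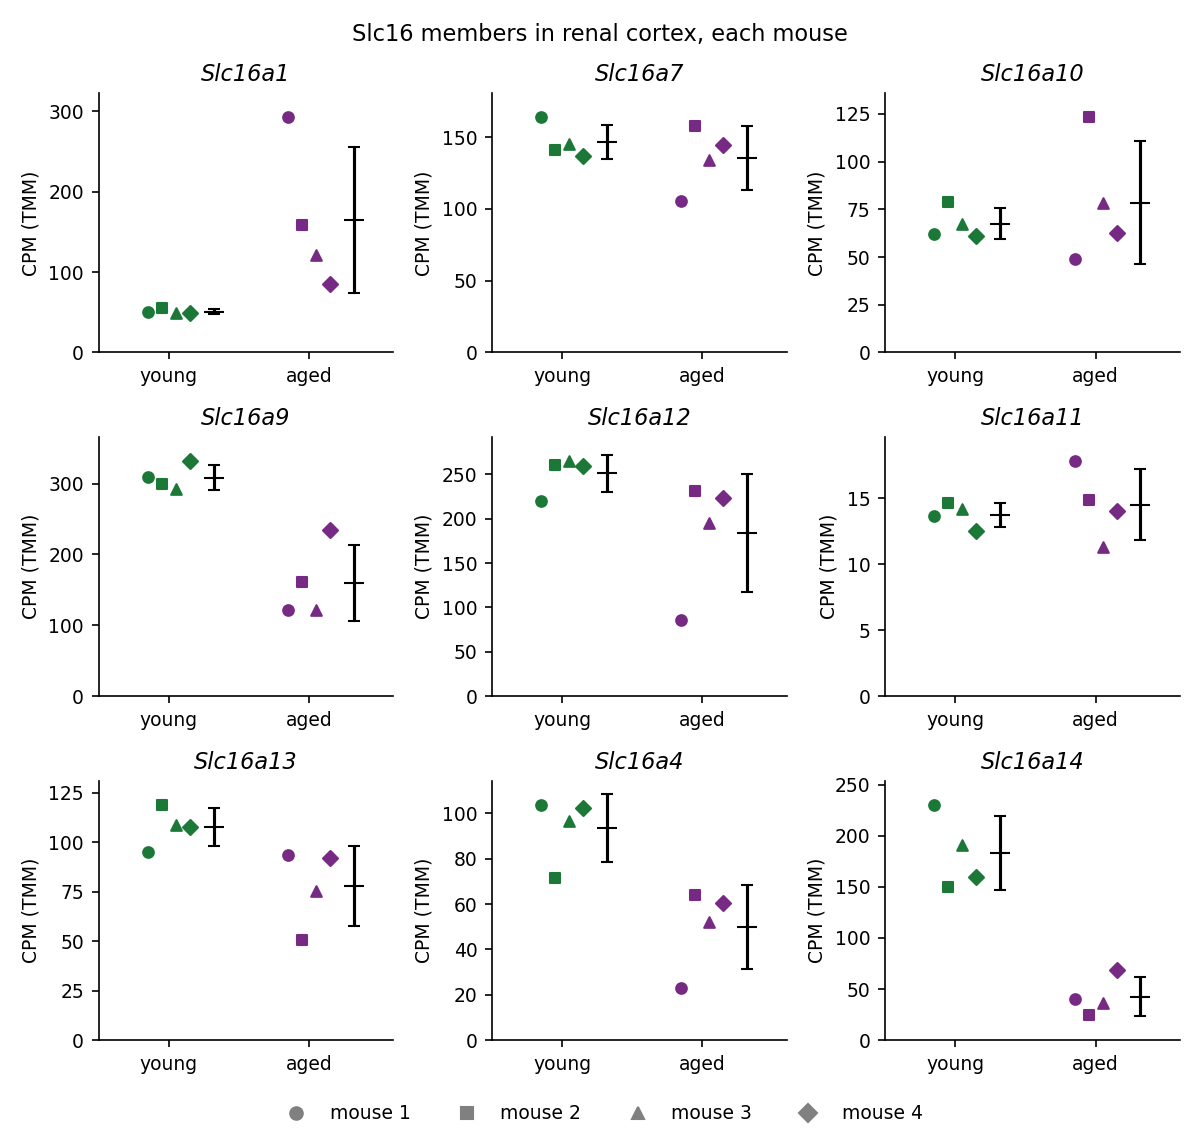
CPM of each of the 9 members in each mouse on linear axes that start at 0 (green, young; purple, aged; the marker shape gives the mouse number), with the mean and SD of 4 mice in black beside the points. The groups do not overlap for Slc16a1, Slc16a9, Slc16a13, Slc16a4 and Slc16a14, and aged mouse 1 (circle) lies apart from the other aged mice for Slc16a1, Slc16a12 and Slc16a4.

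Slc16a9 encodes MCT9, a carrier of carnitine whose human gene is known for variants tied to blood carnitine and urate. It lies at chr10:69707848-69748716 on the plus strand (mm9). It was at 309, 300, 293 and 332 CPM in young mice 1 to 4 and at 121, 161, 122 and 234 CPM in aged mice 1 to 4. The groups did not overlap, and aged mouse 4 was again nearest to the young mice. The means were 308 ± 17.2 CPM in young and 160 ± 53.2 CPM in aged mice (SD, n = 4), and the log2 fold change was -0.95 ± 0.20 (SE), a level 1.93-fold lower. The call was kept without aged mouse 1 or aged mouse 4 and lost without any other single mouse, with log2 fold changes from -1.20 to -0.84. Without aged mouse 1 the log2 fold change was -0.84.

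Slc16a4, which encodes MCT5 and has no settled cargo, lies at chr3:107094148-107115033 on the plus strand (mm9). It was at 104, 71.7, 96.8 and 102 CPM in young mice 1 to 4 and at 23.1, 63.8, 52.2 and 60.5 CPM in aged mice 1 to 4. The groups did not overlap, with young mouse 2 the lowest of the young and aged mouse 1 the lowest of the aged mice. The log2 fold change was -0.91 ± 0.28 (SE), and the gene was not called. It was called in 2 of 14 alternative fits, with DESeq2, which called 6.26% of all genes, and without aged mouse 1, where the log2 fold change was -0.67.

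Slc16a13 and Slc16a11, carriers of the lactate and pyruvate kind whose human genes lie in a region tied to type 2 diabetes, are neighbours on chromosome 11. Slc16a11 lies at chr11:70026254-70029919 on the plus strand and Slc16a13 at chr11:70030291-70034496 on the minus strand (mm9), with 371 bases between their ends. Slc16a13 was at 95.4, 119, 109 and 108 CPM in young mice 1 to 4 and at 93.8, 50.6, 75.3 and 92.1 CPM in aged mice 1 to 4. The groups did not overlap, although aged mice 1 and 4 came close to young mouse 1, and with a log2 fold change of -0.47 ± 0.18 (SE) the gene was not called. Slc16a11 had 12.5 to 14.6 CPM in young and 11.3 to 17.8 CPM in aged mice. Its groups overlapped, and its log2 fold change was 0.08 ± 0.14 (SE). The difference of each neighbour thus had its own size, and the difference between them was not tested.

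Slc16a12 encodes the creatine carrier MCT12, known from an inherited cataract with glucose in the urine. It was at 220, 260, 265 and 259 CPM in young mice 1 to 4 and at 86.3, 231, 195 and 223 CPM in aged mice 1 to 4 (chr19:34742893-34821779, minus strand, mm9). Aged mouse 1 was far below all other mice, while aged mice 2 and 4 lay within the young range. The log2 fold change of -0.45 ± 0.26 (SE) was -0.21 without aged mouse 1, and the gene was not called in either fit.

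Slc16a7 encodes MCT2, a lactate and pyruvate carrier of higher affinity than MCT1. It ranged from 137 to 164 CPM in young and from 105 to 158 CPM in aged mice (chr10:124663520-124766019, minus strand, mm9), with a log2 fold change of -0.12 ± 0.13 (SE). Without aged mouse 1, the lowest of the aged mice, that log2 fold change was -0.01. Slc16a10 encodes TAT1, which lets aromatic amino acids and thyroid hormones leave the proximal tubule cell. It ranged from 61.1 to 78.8 CPM in young and from 49.1 to 123 CPM in aged mice (chr10:39753341-39862062, minus strand, mm9). Its log2 fold change was 0.22 ± 0.25 (SE), and without aged mouse 2, the highest of the aged mice, -0.09. Both genes overlapped between the groups and were called in none of the fits.

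The aged mice differed among themselves in how far each lay from the young mean. Aged mouse 1 was the farthest of the 4 in 6 members, and aged mouse 2 in Slc16a10, Slc16a13 and Slc16a14. Aged mouse 4 was the nearest to the young mean in 6 members. Slc16a14 was the member farthest from the young mean in aged mice 2, 3 and 4, with log2 ratios of -2.90, -2.33 and -1.41. In aged mouse 1 that place was taken by Slc16a1 at 2.53, ahead of Slc16a14 at -2.17 and Slc16a4 at -2.02.

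**Figure D4:**
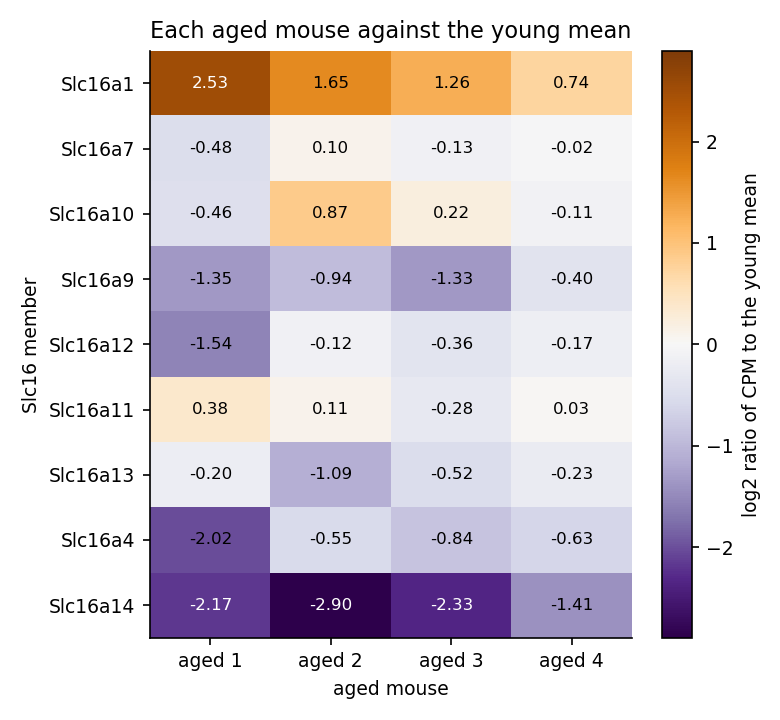
Log2 ratio of CPM in each of the 4 aged mice (columns) to the mean of the 4 young mice for each member (rows), with colour and printed value on the same scale. Slc16a1 is above 0 and Slc16a14, Slc16a9, Slc16a4 and Slc16a13 are below 0 in every aged mouse, with the smallest size in aged mouse 4 for Slc16a1, Slc16a9 and Slc16a14.

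Among other Slc16 genes, none tested was called by edgeR or DESeq2, and 1 had an unadjusted p below 0.05 by edgeR. Slc16a5, a carrier of drugs such as diuretics in heterologous cells, was at 25.8 to 39.6 CPM in young and 22.3 to 25.4 CPM in aged mice, with a log2 fold change of -0.44 ± 0.13 (SE, adjusted p = 0.0924 by edgeR's quasi-likelihood test). Slc16a6, a carrier of ketone bodies and taurine, was at 32.1 to 41.7 CPM in young mice, at 39.5 CPM in aged mouse 1 and at 8.18 to 18.4 CPM in the other aged mice. Its log2 fold change was -0.83 ± 0.39 (SE, adjusted p = 0.214 by edgeR's quasi-likelihood test), and without aged mouse 1 it was -1.36 with an adjusted p of 0.0237. Slc16a3, the lactate exporter MCT4 of glycolytic cells, had 7 to 38 counts per library, and Slc16a8, a carrier of the retinal pigment epithelium, was under the filter. Slc16a3 had 38 counts in aged mouse 1 and at most 14 in any other mouse.

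Genes that act beside the carriers were read from 7 lists chosen by function, but with earlier results of these data known. The p-values of genes in these lists are therefore a description. Of the 4 genes of the helper and sodium-coupled list, none was called by edgeR, although all 4 had an unadjusted p below 0.05, as had 25.5% of all genes tested, and DESeq2 called Slc5a12. Slc5a12, which takes up lactate in the early proximal tubule, was at 374 to 567 CPM in young and 439 to 1065 CPM in aged mice, with a log2 fold change of 0.75 ± 0.27 (SE). Without aged mouse 1 it was called at 0.96 (adjusted p = 0.0258 by edgeR's quasi-likelihood test). Slc5a8, its relative of the later proximal tubule, stood at -0.60 ± 0.24 (SE), and without aged mouse 4 it was called at -0.85. The helpers of MCT1 and MCT2, basigin (Bsg) and embigin (Emb), had log2 fold changes of -0.28 ± 0.10 and -0.26 ± 0.10 (SE). Slc16a1 and its helper Bsg thus had values on opposite sides of 0.

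Of the lactate and pyruvate enzymes, 14 were tested and 1 was called, Pdk3, a kinase that inhibits pyruvate dehydrogenase. Pdk3 was at 57.2 to 74.4 CPM in young mice and at 19.6, 30.3, 22.6 and 46.9 CPM in aged mice 1 to 4. The groups did not overlap and Pdk3 fell by 1.17 on the log2 scale (SE 0.25, adjusted p = 0.0472 by edgeR's quasi-likelihood test). This call was kept without aged mouse 1 or aged mouse 4 and lost without any other single mouse, with log2 fold changes from -1.48 to -1.01. It was also lost with mice of the same number as a block (adjusted p = 0.0507). Pdk1, Pdk2 and Pdk4, kinases of the same kind, stood on the other side of 0 and were not called. Their log2 fold changes were 0.84 ± 0.32, 0.26 ± 0.19 and 3.60 ± 1.13 (SE), and each was highest in aged mouse 1. The 2 most abundant genes of the list were not called with all 8 mice. Pck1, the gluconeogenic enzyme, was at 4706 CPM in aged mouse 1 and at 1023 to 1144 CPM in the other aged mice, against 1631 to 2484 CPM in young mice. Its log2 fold change was 0.02 ± 0.49 (SE), and without aged mouse 1 it was -0.85 and called as lower (adjusted p = 0.0204 by edgeR's quasi-likelihood test). Ldhd, which oxidizes D-lactate, stood at a log2 fold change of -0.89 ± 0.28 (SE), and was called by DESeq2 and, without aged mouse 4, by edgeR at -1.28. The median log2 fold change of the list was -0.17.

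None of the 6 ketone body enzymes was called by edgeR, while 4 had an unadjusted p below 0.05 and DESeq2 called Bdh1 and Oxct1 as lower. Oxct1, which starts the use of ketone bodies, was at 1568 to 1659 CPM in young and 436 to 1066 CPM in aged mice. Its log2 fold change was -0.95 ± 0.24 (SE, adjusted p = 0.0658 by edgeR's quasi-likelihood test), and its groups did not overlap. It was called without aged mouse 1, at -0.74 (adjusted p = 0.0111 by edgeR's quasi-likelihood test), and without aged mouse 4, at -1.10. Acat1, the thiolase of the same route, stood at -0.51 ± 0.19 (SE) and was called without aged mouse 4, at -0.70.

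For the cargo of Slc16a12, Slc16a9 and Slc16a10, most genes did not pass the test. Of 5 creatine genes tested none was called by edgeR or DESeq2, and none had an unadjusted p below 0.05. The most abundant, Gatm, which makes the creatine precursor, was at 63.7 CPM in aged mouse 1 and 471 to 1094 CPM in the other aged mice, against 382 to 613 CPM in young mice. The creatine importer Slc6a8 stood at a log2 fold change of 0.04 ± 0.12 (SE). Of 9 carnitine genes none was called by edgeR, 2 had an unadjusted p below 0.05 and DESeq2 called Bbox1, the last enzyme of carnitine synthesis, as higher. Bbox1 was at 0.295 to 1.22 CPM in young mice, on 5 to 23 counts per library, and at 1.58 to 14.4 CPM in aged mice. Its log2 fold change was 3.10 ± 0.73 (SE, adjusted p = 0.0559 by edgeR's quasi-likelihood test), and edgeR called it without aged mouse 1 or aged mouse 4. Cpt1a, which loads fatty acids onto carnitine, stood at 0.31 ± 0.23 and Aldh9a1, an enzyme of carnitine synthesis, at 0.08 ± 0.10 (SE). Of 10 amino acid carriers none was called by edgeR, 4 had an unadjusted p below 0.05 and DESeq2 called Slc6a19. Tmem27, a helper of those carriers, stood at -0.20 ± 0.26 and Slc3a1, the heavy chain of the cystine carrier, at -0.36 ± 0.16 (SE).

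Among 8 thyroid hormone genes tested, Dio1 fell and Thrsp rose in aged mice. Dio1, the deiodinase that activates thyroid hormone in the proximal tubule, was at 22.07, 13.96, 24.89 and 21.68 CPM in young mice 1 to 4 and at 5.40, 7.29, 2.57 and 5.34 CPM in aged mice 1 to 4. It fell by 2.01 on the log2 scale (SE 0.30, adjusted p = 0.0217 by edgeR's quasi-likelihood test), with log2 fold changes from -2.21 to -1.78 when mice were left out. The call was lost without young mouse 1, 3 or 4 and with the block on the mouse number (adjusted p = 0.0507). Thrsp, a thyroid hormone responsive gene of fat synthesis, was at 1.43 to 3.88 CPM in young mice and at 18.1, 18.5, 4.06 and 9.32 CPM in aged mice 1 to 4. It rose by 2.20 on the log2 scale (SE 0.49, adjusted p = 0.0498), and its call was kept only without aged mouse 3 or aged mouse 4, within a range of 1.95 to 2.49. It was lost as well with no filter on low counts (adjusted p = 0.0507) and with at least 10 counts in every library (0.0516), and kept with the block (0.0406). The most abundant genes of the list, Klf9, a target of thyroid hormone and glucocorticoids, and the receptor Thrb, stood at 0.36 ± 0.31 and -0.38 ± 0.13 (SE).

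Cell type markers were read beside the members. Of the 17 proximal tubule markers none was called by edgeR (5 had an unadjusted p below 0.05 and DESeq2 called 4), and 3 of them, Slc22a6, Keg1 and Slc22a7, did not overlap between the groups and were lower in aged mice. In aged mice 2 to 4 the sum of the list overlapped the young range. Lrp2, Slc34a1 and Slc27a2 made up most of this sum, so it does not follow the less abundant markers. Slc22a7, for example, was at 1.07 to 22.3 CPM in aged mice 2 to 4 and at 47.0 to 162 CPM in young mice. Over all 8 mice, 11 of the 17 log2 fold changes were below 0 and 6 above. Of the 6 thick ascending limb, 5 distal convoluted tubule, 9 collecting duct, 5 podocyte, 6 endothelial and 6 fibroblast and pericyte markers tested, none was called by edgeR. DESeq2 called Calb1, Col1a1 and Col3a1 among them. Of 6 macrophage markers Csf1r was called as lower, while the log2 fold changes of the other 5 were above 0 and none was called, and of 5 lymphocyte markers Igj, the chain that joins immunoglobulins, as higher. The lymphocyte list summed to between 36.3 and 101 CPM in aged and between 8.03 and 18.2 CPM in young mice, of which Igj alone made 31.1 to 96.5 CPM and 5.29 to 13.6 CPM. Without Igj the lymphocyte sums overlapped, at 4.27 to 5.46 CPM in aged and 2.01 to 4.68 CPM in young mice. The macrophage list without Csf1r summed to between 50.0 and 125 CPM in aged and between 42.8 and 68.9 CPM in young mice. The part of these differences in the values of the members was not tested.

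Slc16a14 was compared with every gene tested by the root mean square difference between log2 CPM values over the 8 mice, each gene centred on its own mean. The nearest were Nudt19 at 0.281, Il34 at 0.381, Kif20b at 0.392, and Agps and Tgm1 at 0.415 each. The nearest member was Slc16a9 at 0.692, rank 93 of all genes tested, and the farthest was Slc16a1 at 2.00, rank 13815. Nudt19, a peroxisomal coenzyme A hydrolase of the kidney, was at 964 to 1282 CPM in young mice and at 186, 181, 268 and 573 CPM in aged mice 1 to 4. Agps, a peroxisomal enzyme of ether lipid synthesis, was at 597 to 863 CPM in young mice and at 132, 165, 141 and 471 CPM in aged mice 1 to 4. Il34 encodes a ligand of the macrophage receptor Csf1r, Kif20b a kinesin and Tgm1 a transglutaminase. In all 5 genes the groups did not overlap and aged mouse 4 was the nearest to the young mice, as in Slc16a14. These genes were picked by their likeness over the same mice, so their own differences are a description.

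**Figure D5:**
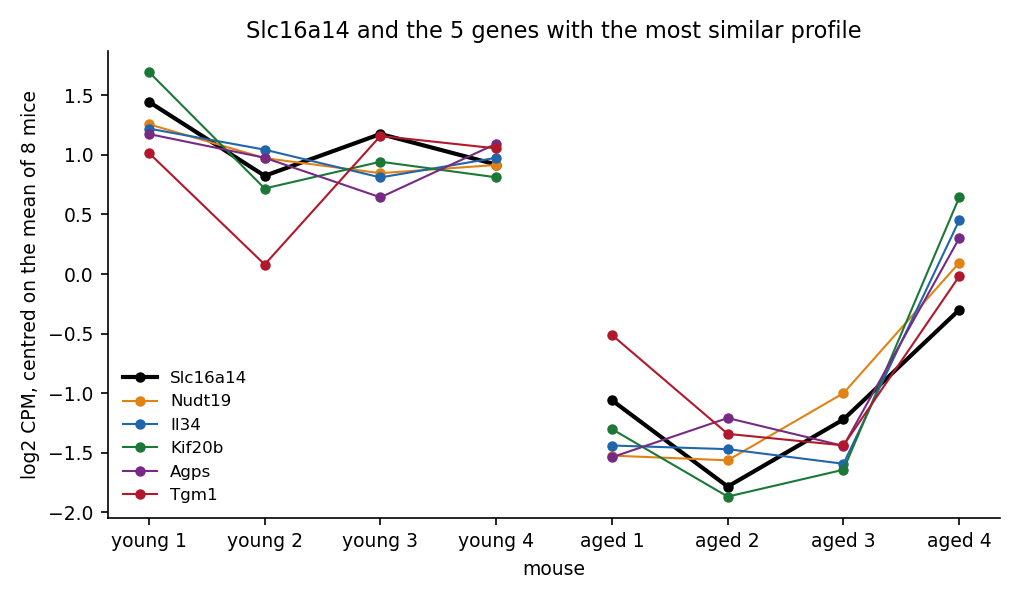
Log2 CPM of Slc16a14 (black) and of the 5 genes nearest to it, each centred on its mean over the 8 mice, for each mouse on the horizontal axis. Lines join the values of a gene within a group to guide the eye and carry no order, and in every gene shown aged mouse 4 is the aged mouse nearest to the young mice.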

How the data were processed

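RNA-Seq libraries from the kidney cortex of 8 mice were depleted of ribosomal RNA and made with a stranded kit. The authors aligned read pairs with TopHat2 to mm9, counted them by strand with HTSeq on RefSeq genes and deposited raw counts. The submitters' processing notes also name CASAVA 1.8.2 and SAMtools; other versions are not given in the sources used here. Groups came from the labels. A joint table was not used, since its 8 columns of values carry names other than the sample titles. Rows that name no gene were left out: pairs on no gene were 20.0% to 29.9% of a library, highest in aged mouse 1.

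Counts were tested in R 4.3.3 with edgeR 4.0.16 (TMM, filterByExpr with a minimum count of 10, all 8 libraries, no covariate), with Benjamini-Hochberg adjustment over 13944 genes. The standard error was the log2 fold change over the square root of F. FPKM used the union of exons in GENCODE for mm9. The procedure was tested on simulated data. A floor of 3 counts was 0.151 to 0.202 CPM and covers counting error only. The labels name separate tissues and no other source of spread, so p-values measure the spread between these mice. A chi-square of counts per gene was at least 9.26 for each pair of libraries, so none were counted as 1 sample. BLAST 2.17.0 found no stretch of 100 bases at 98% identity elsewhere in the genome for any Slc16 transcript. Members and lists were chosen with earlier results of these data known. Named were the Slc16 genes, in each list the called genes and the 2 with the highest mean CPM, and the 5 genes most like Slc16a14. Pdk1, Pdk2, Pdk4, Bsg, Emb, Bbox1 and genes called only by DESeq2 1.42.0 were named after their values were seen. Some genes within this rule are not reported here. Alternatives were other scalings, DESeq2, other filters, a replicate block and each library left out.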

Additional observations from a re-analysis of the deposited data

Results flagged for a closer look

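Over the 9 members and 28 other named genes, which make 74 groups of 4 mice, 6 values lay so far from the other 3 mice that Dixon's test at 95% set them apart, where chance alone gives about 3.7. Pdk1, Pdk2 and Pdk4 were not among these genes. Slc16a12 in young mouse 1, at 219.9 CPM against 259.3 to 265.2 CPM in the other young mice, was separated from the nearest of them by 0.87 of the range. It was the only one of the flagged values in a member. Pck1 in aged mouse 1, at 4706 CPM against 1023 to 1144 CPM, had a gap of 0.967 of the range. Klf9 in young mouse 3, at 291.9 CPM against 252.9 to 257.9 CPM, had a gap of 0.871. The remaining 3 were in genes picked for their likeness to Slc16a14, all in aged mouse 4 and all as the highest of the aged mice. Il34 had a gap of 0.964 (20.9 CPM against 5.08 to 5.65 CPM), Agps of 0.901 (471 CPM against 132 to 165 CPM) and Kif20b of 0.898 (19.3 CPM against 3.38 to 5.01 CPM).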

How the results depend on the processing

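The 287 calls over all genes became 488 with scaling by library size alone (where the median over all genes tested was 0.14 in place of 0.03), 873 with DESeq2 and 130 with a replicate block, and ranged from 8 (without young mouse 1) to 733 (without aged mouse 4) when each mouse was left out. The members called numbered 0 to 4 in those left-out fits. No member was called without young mouse 1, 3 or 4, and only Slc16a14 without aged mouse 2, aged mouse 3 or young mouse 2. The genes called in the lists numbered 5 by library size alone, 9 with DESeq2, and 0 to 10 with a mouse left out. Over 14 alternatives Slc16a14 was called in 11, Slc16a9 in 8, Slc16a1 in 7 and Slc16a4 in 2, with the direction kept in each. Slc16a10 without aged mouse 2 and Slc16a11 without aged mouse 1 (-0.04) changed sign.

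The 126 recomputed log2 fold changes of the members each stayed within 1 SD of the mice. Leaving out 1 mouse can hardly move a mean that far, so this is no sign of stability in those fits. Of 391 recomputed log2 fold changes of the other named genes, 328 kept their direction and side of the threshold. A call was lost in 33 and gained in 18, and 12 reversed, all of genes that the test over 8 mice did not call. Pck1 (0.02) was -0.35 with the replicate block and -0.85 to 0.23 with a mouse left out, lowest without aged mouse 1, where it was called. Gatm (0.26) was -0.18 with the block and -0.19 to 0.64 with a mouse left out. With a mouse left out, Slc6a8 ranged from -0.0165 to 0.121, Klf9 from -0.0963 to 0.519 and Tmem27 from -0.391 to 0.0239. The cause was not tested. Aged and young mice share replicate numbers, but the correlation of deviations passed 0.1 in only 2 of the 4 pairs (0.21, 0.04, 0.20 and -0.03). Of the 8 mice, 5 correlated best with the mouse of their own number, a hint from the data and not the design. With the block, Slc16a9 and Slc16a14 were called among the members and Slc16a1 was not, and Bdh1 and Thrsp were called in the lists. Of the 9 members' FPKM means in young mice recomputed with the longest coding transcript, 6 moved by less than 1 SD, and those of Slc16a4, Slc16a10 and Slc16a11 moved by more. Slc16a8 had too few counts to be tested at this depth.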
